A study of Homo sapiens with 6 samples.

Results

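The transcription factors that make a B cell a B cell are described here in a plasma cell tumour line through the chromatin around 10 of their genes: PAX5, EBF1, BACH2, BCL6, SPIB, SPI1, BCL11A, TCF3, ETS1 and ID3. The genes were given as a list named for B cell transcription factors silenced in plasma cells, and whether each of them is silenced in these cells was not measured. Peaks of 6 ATAC-seq libraries were merged where they shared 1 bp, and every merged region inside one of these genes or within 100 kb of either end was taken, which gave 127 of 75701 regions around 10 of 20033 protein-coding genes. ATAC-seq marks open chromatin by the cuts of the Tn5 transposase. The cells were ARP1, a human multiple myeloma line, either wild type for KDM6A (WT, 3 libraries) or with KDM6A knocked out (KO, 3 libraries). KDM6A is a demethylase that removes the repressive mark on lysine 27 of histone H3. The stated purpose was to learn how KDM6A affects accessibility. The labels give no treatment and do not say whether the knockout is a single clone or whether numbered replicates were separate cultures, so each p-value measures the spread between these libraries, which may be technical.

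In the B lineage TCF3, EBF1 and PAX5 act in sequence to commit progenitors, and SPI1, SPIB and ETS1 are ETS family factors that help to keep B cell genes active. BCL6 and BACH2 are repressors that hold activated B cells back from secreting antibody, and BCL11A is a repressor needed early in the lineage. ID3 binds E proteins such as TCF3 and keeps them off DNA. When a B cell becomes a plasma cell, PRDM1 shuts much of this network down.

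The lists from the genotypes differed in length, which touches every count below. The KO lists held 33055 to 37314 nuclear peaks and the WT lists 54443 to 56048, and the weakest listed peak had a fold over background of 3.09 to 3.31 in the KO and 2.72 to 2.92 in the WT. A weak region could therefore enter a WT list at a fold at which no KO list held a peak. The read number behind each list is not known from the files. As a check of the label, 7 of 9 plasma cell markers had a peak within 1 kb of the start (either gene end where no start was on file) in all 6 lists, among them IRF4, PRDM1, XBP1 and SDC1, where 56.2% of all coding gene starts were. The other two were JCHAIN, called in 3 WT and 0 KO lists, and SLAMF7, called in 2 WT and 0 KO lists. Of 8 mature B cell markers 6 had none in any list, including MS4A1 and CD79A, while CR2 was called in all 6 and BLNK in 3 WT and 0 KO lists. None of 5 myeloid markers had a peak. Of 5 T cell markers, CD3E and CD8A were called in all 6 lists and TRAT1 in 3 WT and 0 KO lists. Whether cell types other than plasma cells play a part in any result was not tested.

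The starts of the 10 genes were not uniformly closed, although the list is named for silenced factors. BACH2, BCL6, BCL11A, TCF3 and ID3 had a peak within 1 kb of the outermost RefSeq start in all 6 lists. PAX5 had one in 3 WT and 2 KO lists. EBF1, SPIB, SPI1 and ETS1 had none in any list at the starts used, and the EBF1 start on file lies inside the gene record rather than at its end. Over 15842 protein-coding genes with a start on file, 56.2% were called in all 6 lists and 36.1% in none, so 5 and 4 of 10 lie near the background. The SPI1 and ETS1 starts were taken as their upper-coordinate gene ends, the outer ends of these minus-strand genes, because the start table has no entry for them. The inner start that ETS1 is known to have was not on file, so the call for ETS1 covers its outer end alone. A further start inside a gene record is treated as a region inside the gene.

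Sequence upstream of the start was compared between open and closed starts. Of the closed starts only EBF1 and SPIB had sequence on file, and the EBF1 start lies inside the gene record, so no general difference is read from it. The 250 bases before the start are shown for 6 genes, 5′ to 3′ on the gene's strand and with every CG dinucleotide in capitals, because these starts span the range from open in all lists to closed in all lists. They are reference sequence from RefSeq, GRCh38.p14. BACH2 (chr6:90296844-90297093, minus strand), TCF3 (chr19:1652616-1652865, minus) and BCL6 (chr3:187745469-187745718, minus) were open in all 6 lists. PAX5 (chr9:37034269-37034518, minus) was open in 5 lists, and EBF1 (chr5:159097957-159098206, minus) and SPIB (chr19:50418688-50418937, plus) in none.
BACH2: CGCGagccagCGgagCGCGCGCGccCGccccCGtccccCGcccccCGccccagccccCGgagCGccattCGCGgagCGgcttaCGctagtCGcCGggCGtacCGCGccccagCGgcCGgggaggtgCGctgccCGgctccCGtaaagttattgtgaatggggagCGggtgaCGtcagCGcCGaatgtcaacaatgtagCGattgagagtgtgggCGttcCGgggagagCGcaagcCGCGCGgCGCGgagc
TCF3: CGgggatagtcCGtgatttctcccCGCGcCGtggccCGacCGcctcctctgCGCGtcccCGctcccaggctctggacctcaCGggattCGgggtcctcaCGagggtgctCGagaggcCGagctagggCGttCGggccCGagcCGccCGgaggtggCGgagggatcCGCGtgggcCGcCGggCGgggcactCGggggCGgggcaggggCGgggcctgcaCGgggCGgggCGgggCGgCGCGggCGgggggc
BCL6: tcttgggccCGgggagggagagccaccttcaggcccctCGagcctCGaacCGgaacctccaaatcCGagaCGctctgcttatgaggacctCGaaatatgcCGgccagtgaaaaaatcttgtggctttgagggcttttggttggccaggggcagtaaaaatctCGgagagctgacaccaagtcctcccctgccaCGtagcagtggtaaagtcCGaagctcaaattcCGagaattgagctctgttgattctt
PAX5: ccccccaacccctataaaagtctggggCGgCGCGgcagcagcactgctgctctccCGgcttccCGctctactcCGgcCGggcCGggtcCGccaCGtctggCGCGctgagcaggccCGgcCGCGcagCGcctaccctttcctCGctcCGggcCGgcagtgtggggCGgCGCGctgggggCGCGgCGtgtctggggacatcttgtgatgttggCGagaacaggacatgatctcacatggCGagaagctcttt
EBF1: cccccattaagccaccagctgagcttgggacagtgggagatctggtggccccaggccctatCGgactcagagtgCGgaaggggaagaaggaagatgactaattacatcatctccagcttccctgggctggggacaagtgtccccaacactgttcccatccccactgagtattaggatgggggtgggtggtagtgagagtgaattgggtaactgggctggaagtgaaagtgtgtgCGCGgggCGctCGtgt
SPIB: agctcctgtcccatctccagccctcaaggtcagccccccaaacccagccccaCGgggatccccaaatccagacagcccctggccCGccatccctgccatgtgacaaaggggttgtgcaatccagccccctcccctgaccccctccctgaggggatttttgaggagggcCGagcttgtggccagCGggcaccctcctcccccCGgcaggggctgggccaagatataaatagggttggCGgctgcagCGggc

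The capitals are dense in BACH2, TCF3 and PAX5 and sparse in EBF1 and SPIB. BACH2 held 40 CG dinucleotides, TCF3 36, PAX5 27, ID3 24 and BCL11A 19, against 7 in SPIB and 6 in EBF1. Over coding genes the median was 22 at starts called in all 6 lists and 5 at starts called in none. BCL6 was the exception among the open starts, with 12. Promoter sequence was on file for 8 of the 10 genes. Motifs were searched on both strands of the same 250 bases. The ETS core CCGGAA was found before the starts of BACH2 and BCL6 and of no other of the 8, and 14.5% of the 35116 RefSeq starts hold it. The E-box CANNTG, the kind of site that TCF3 binds, was found once before PAX5 and SPIB and at 2 positions before EBF1, with 61.8% of all starts holding it. Neither the PU.1 site GAGGAAGT (2.17% of starts) nor the core of the interferon-stimulated response element (3.02%) was found in any of the 8. The letters GGAA are common to CCGGAA and GAGGAAGT. These matches describe letters and not bound sites.

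Values at the open starts are given as the fold over background that the authors' peak caller wrote, with the percentile of the peak's −log10 p-value within its own list, where 100 is the strongest peak. BCL6 and TCF3 had the strongest starts. At BCL6 the fold was 16.7, 21.4 and 18.6 in WT replicates 1 to 3 and 14.7, 17.0 and 17.1 in the KO, or 18.9 ± 2.38 against 16.3 ± 1.35 (SD, n = 3). At TCF3 it was 15.2, 24.3 and 15.3 in the WT and 18.1, 22.3 and 19.6 in the KO. The folds of WT and KO overlapped at both genes. To set ranks side by side, every list was also shortened to its 33055 strongest peaks, the length of the shortest list. The percentile in these lists of equal length was 83.0, 85.4 and 86.0 in the WT and 86.0, 86.8 and 90.8 in the KO at BCL6. At TCF3 it was 79.4, 89.3 and 77.9 in the WT and 91.6, 93.6 and 93.8 in the KO. Every KO percentile lay above every WT percentile at both genes, at BCL6 by a margin that vanishes on rounding.

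BACH2 and ID3 had starts of middling strength. The fold at BACH2 was 7.69, 8.26 and 9.22 in the WT and 10.2, 8.52 and 7.02 in the KO. At ID3 it was 7.47, 8.51 and 8.17 in the WT and 7.82, 9.18 and 9.82 in the KO. These folds overlapped between the genotypes. The BACH2 percentile with lists of equal length was 39.0, 34.7 and 47.9 in the WT and 71.4, 56.0 and 53.4 in the KO, and that of ID3 was 36.7, 36.8 and 39.0 in the WT and 57.1, 60.2 and 71.1 in the KO. At both genes every KO percentile lay above every WT percentile. The summits at ID3 lay at −94 to 16 bp from the start, with negative positions upstream, and those at BCL6 at −221 to −64 bp. Over BACH2 the open region was 2989 bp wide, and the summit lay anywhere from −30 to 1320 bp.

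BCL11A had the opposite order, and PAX5 was not called in every list. The BCL11A start had a fold of 9.82, 15.8 and 10.9 in the WT and 6.02, 7.54 and 7.30 in the KO, and every KO value lay below every WT value. Its percentile with lists of equal length was 55.9, 73.3 and 59.0 in the WT and 39.7, 48.3 and 55.7 in the KO, so that the nearest values of the genotypes almost met. Its summits lay at −1523 to −1173 bp from the start, outside the start window of 1 kb that the peaks reach into. The folds thus belong to a site upstream of the start. In KO replicates 1 and 2 no peak covered the start base, and the nearest lay 0.203 and 0.289 kb away. At PAX5 the fold was 4.70, 10.2 and 6.29 in the WT and 4.51 and 6.23 in KO replicates 1 and 2, with no peak in KO replicate 3. The PAX5 folds overlapped, and its folds in 4 of the 5 calling lists were under 7. Folds come from lists with different thresholds and backgrounds. Over the 23589 regions called in all 6 lists the median of the mean fold was 11.98 in the WT and 9.10 in the KO, and the KO mean was the lower at 80.7%. In the windows of the 10 genes it was the lower at 44 of 58 (75.9%). No change between genotypes is therefore read from a fold or a rank in the full lists.

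**Figure D1:**
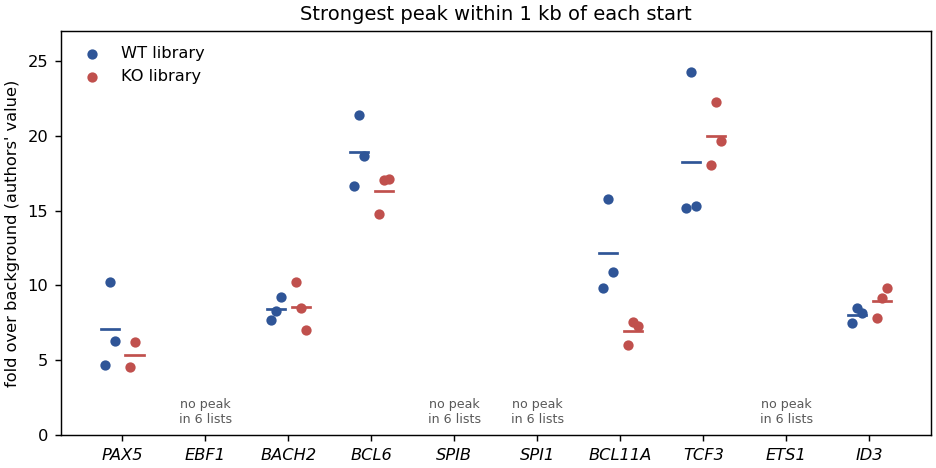
Fold over background (vertical axis, the authors' value per list) of the strongest peak within 1 kb of each gene's outermost start. Points are single libraries, WT in blue and KO in red, bars are means of the lists that hold a peak. EBF1, SPIB, SPI1 and ETS1 have no peak in any of the 6 lists, PAX5 has 5 points, and at BCL11A all KO points lie below all WT points.

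BCL11A has further RefSeq starts inside the record that can be told apart at this scale. The outermost is at 60553924 on chromosome 2, and the others are at 60553654, 60552714, 60550907 and 60528535. The start at 60550907 lay within 1 kb of a peak in all 6 lists. The start at 60552714 was called in 3 WT and 0 KO lists, with full lists and with lists of equal length, and the start at 60528535 in none. Peaks on both sides of this start entered the WT calls. On the downstream side of the gene they reached 60552662 and 60552699 in WT replicates 1 and 2. In WT replicate 3 the main peak ended at 60551083 and a separate weak peak, of fold 3.14, at 60551876. The KO peaks ended at 60550766, 60550934 and 60551565, so the main peak of WT replicate 3 ended farther from the start than that of KO replicate 3. On the upstream side the peaks began at 60553701 and 60553631 in WT replicates 1 and 3, within 1 kb of the start, and at 60553848 or beyond in the KO. The call in WT replicate 3 with lists of equal length rests on that upstream peak.

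The 4 starts without a call were not alike in what lay near them. At SPIB the nearest peak was 12.4 to 12.6 kb away in all 6 lists, beyond the far end of the gene and at the start of the neighbouring MYBPC2. At SPI1 it was 4.07 and 4.08 kb away, inside the gene, in WT replicates 2 and 1, and 14.8 kb or more away in the other lists. At ETS1 it was 5.96 and 16.4 kb away in WT replicates 3 and 1 and 23.1 to 23.3 kb in the other 4. At EBF1 a region at chr5:159098979-159099422, with peaks 1.02 to 1.19 kb from the start on file, was called in 3 WT lists and in KO replicate 2. That region lies inside the EBF1 record and within 1 kb of its upper end at 159099916. Placed at that end, as for SPI1 and ETS1, the EBF1 start would be called in 3 WT and 1 KO lists. With a start window of 2 kb EBF1 would count as called in 3 WT and 1 KO lists, and its fold there was 5.77, 6.81 and 5.66 in the WT and 4.59 in the KO.

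Counts of open regions over the whole windows were lower in the KO with full lists and close to equal with lists of equal length. The 10 windows held 102, 107 and 103 peaks in the WT and 76, 80 and 72 in the KO, or 104 ± 2.65 against 76 ± 4 (SD, n = 3). Every KO library lay below every WT library. The exact permutation test, two-sided, gave p = 0.1, and with 3 libraries in each genotype no smaller value is possible. As a part of each list the order was the other way, with 18.7, 19.6 and 18.4 peaks per 10000 in the WT and 22.99, 21.4 and 19.97 in the KO (exact permutation p = 0.1). With lists of equal length the difference in peak number was −1 (WT minus KO, exact permutation p = 1) and that per 10000 peaks −0.30 (exact permutation p = 1).

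Of the 127 regions 58 were called in all 6 lists (45.7%, against 31.2% of all merged regions). WT-only regions, called in 3 WT and 0 KO lists, numbered 9 of the 85 called in all WT lists (10.6%), against 17.3% over the genome. All 9 lay away from gene starts, as did 6662 of the 6871 WT-only regions over the genome, so no trait of these genes is read from this. Among the 60 WT regions away from starts they made up 15.0%, against 23.1% of such regions over the genome. KO-only regions, called in 3 KO and 0 WT lists, numbered 0 of 58, against 0.39%. With lists of equal length 3 of 62 were WT-only (4.84% against 7.24%) and 2 of 57 KO-only (3.51% against 3.82%). The KO-only counts lie at the share over the genome, and no trait of these genes is read from them. Windows take in neighbours too, and 20 of the 127 regions lay at the start of another coding gene, 8 of them around SPIB.

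The genes differed in how many regions each genotype held. In EBF1 and its surroundings the WT lists held 13, 12 and 12 regions and the KO lists 6, 5 and 3, so that the KO mean was 37.8% of the WT mean. At ETS1 the numbers were 20, 17 and 18 in the WT and 12, 13 and 12 in the KO. At BACH2 they were 9, 11 and 13 against 7, 7 and 5. TCF3 stood at the other end, with 10, 11 and 10 in the WT and 12, 10 and 12 in the KO. EBF1, ETS1, BACH2, PAX5 and BCL11A had every KO list below every WT list, and the other 5 genes overlapped. Such separation was seen in 43.5% of the 16558 coding gene windows with a mean of at least 3 WT regions, so 5 of 10 is near the background. The median over those windows was 76.5%, and 6.50% of them had a KO share as low as that of EBF1 or lower. The TCF3 share of 110% was reached or undercut by 95.9%.

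**Figure D2:**
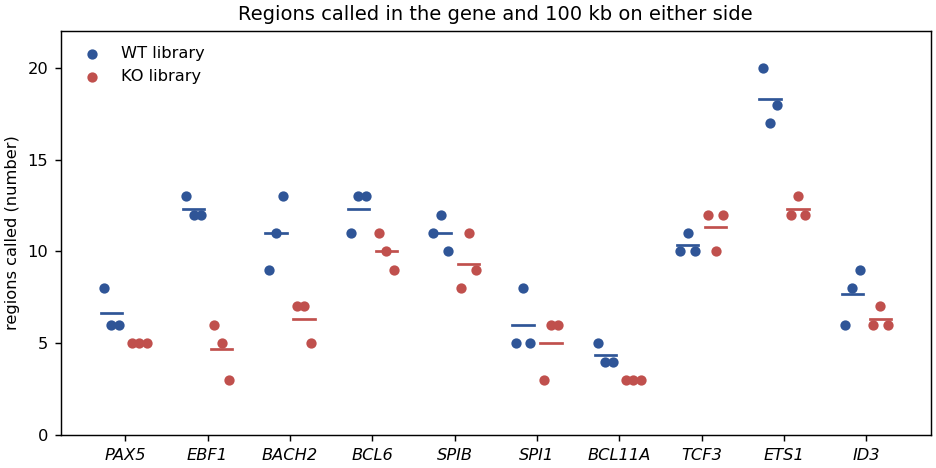
Number of merged regions called in each library (vertical axis) inside each gene and 100 kb on either side. Points are libraries, WT in blue and KO in red, and bars are means of 3. EBF1 shows the widest gap, 12 to 13 regions in the WT and 3 to 6 in the KO, while the TCF3 points overlap.

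EBF1, the factor that opens B cell genes in progenitors, had 4 of the 9 WT-only regions. They lay at chr5:158669999-158671187 beyond the far end of the gene, at chr5:158749550-158750291 and chr5:158752086-158752821 inside it, and at chr5:159156552-159157005 upstream. The strongest of them, at 158752086, had a fold of 5.55, 6.08 and 6.92 in the WT, and it alone of the 4 was still WT-only with lists of equal length. The other 3 had mean WT folds between 3.98 and 5.78. Of 11 EBF1 regions called in all WT lists 3 were called in all 6, as were 35 of the 60 such regions away from starts in the 10 windows. One was at chr5:158678489-158680015, beyond the far end of the gene, with a fold of 13.0, 17.5 and 15.5 in the WT and 6.92, 8.85 and 6.17 in the KO. With lists of equal length its percentile was 72.1, 77.8 and 78.5 in the WT and 49.2, 58.1 and 44.9 in the KO, so the genotypes did not overlap. The next, at chr5:159119825-159121235 and −22.6 kb (distances run from the outermost start to the centre of a region, negative upstream), had a fold of 8.76, 7.53 and 7.33 in the WT and 7.82, 7.87 and 7.02 in the KO. Those folds overlapped, whereas its percentile with lists of equal length was higher in every KO list, at 57.1, 51.0 and 53.4 against 48.4, 27.2 and 30.4 in the WT.

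PAX5, which fixes B cell identity, was more accessible inside the gene than at its outermost start. A region 7.2 kb into the gene, at chr9:37025996-37028233, had a fold of 11.5, 11.2 and 10.9 in the WT and 11.4, 15.1 and 14.9 in the KO. Its percentile with lists of equal length was 65.6, 55.1 and 59.0 in the WT and 76.4, 82.8 and 87.1 in the KO, and every KO value lay above every WT value. PAX5 is known to have an additional start inside the gene, and whether this region covers it was not tested. The other strong region, at chr9:37079232-37080577, −45.6 kb and overlapping EBLN3P, had a fold of 14.1, 20.4 and 13.0 in the WT and 14.1, 13.1 and 11.8 in the KO. No region around PAX5 was WT-only or KO-only, and 4 of 8 were called in all 6 lists.

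TCF3, an E protein, lay in a gene-rich stretch of chromosome 19 in which all 10 regions called in all 3 WT lists were called in all 3 KO lists as well. Over the genome this held for 23589 of 39777 regions. Of the 14 TCF3 regions 5 were at the starts of other coding genes, such as MBD3 and UQCR11. The strongest distal region, at chr19:1667916-1669642 and −16.2 kb, had a fold of 10.3, 12.4 and 9.43 in the WT and 8.43, 8.20 and 8.70 in the KO. Its percentiles with lists of equal length overlapped between the genotypes. A region 3.6 kb inside the gene, at chr19:1648480-1649551, had mean folds of 6.68 ± 0.96 and 7.01 ± 2.05. With lists of equal length 2 regions became KO-only, at chr19:1546106-1546613 with a fold of 7.22, 4.59 and 3.93 and at chr19:1747585-1748469 with 4.21, 4.92 and 3.93. In the full lists both places were called in all 6, with WT folds of 4.27, 4.37 and 4.19 at the first and 4.70, 4.62 and 3.77 at the second, and the shortening removed those WT peaks.

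ID3, the inhibitor of E proteins, had no WT-only region among the 6 called in all WT lists, against a share of 17.3% over the genome. PAX5, BACH2, SPIB, SPI1 and TCF3 had none either. Of the 9 ID3 regions 6 were called in all 6 lists, against 31.2% of all merged regions. The region 4.7 kb downstream of its start, at chr1:23554041-23555477, had a fold of 10.3, 10.9 and 8.17 in the WT and 7.52, 8.20 and 7.02 in the KO. One 30.8 kb away, at chr1:23527956-23529455, overlapped the neighbouring E2F2 and had mean folds of 8.17 ± 1.39 and 7.23 ± 1.09.

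ETS1, which restrains plasma cell differentiation, had no peak at its outer end and a strongly open region inside the gene. The region at chr11:128520876-128523439, 65.4 kb into the gene, had a fold of 32.9, 34.5 and 30.8 in the WT and 21.1, 25.9 and 20.8 in the KO. Its percentiles in the full lists were 97.6 to 98.6 in the WT and 94.7 to 96.5 in the KO. With lists of equal length they were 97.7, 96.00 and 97.0 in the WT and 94.7, 96.05 and 94.9 in the KO, which overlapped. This region ranked above every other of the 127 regions in mean percentile of the full lists. ETS1 is known to have an inner start as well, and since the start table has no entry for ETS1, whether this region covers it was not tested. It also overlaps the microRNA gene MIR6090. Beyond the far end, the region at chr11:128405192-128407030 had a fold of 19.0, 16.5 and 18.7 in the WT and 12.6, 13.1 and 15.4 in the KO. Its percentiles with lists of equal length overlapped between the genotypes.

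The ETS1 gene also held the strongest WT-only region of the 10 windows. This region, at chr11:128468033-128469882 and 118.6 kb from the outer start, had a fold of 10.5, 12.6 and 12.4 in the WT and no peak in any KO list, where the weakest listed folds were 3.09 to 3.31. Its WT percentiles were 75.7, 76.8 and 80.4. Of the 6871 WT-only regions of the genome 52 (0.757%) had a mean WT percentile as high. The region was picked as the strongest of 9, so a low share is partly built in. For the other WT-only regions of the windows that share ran from 26.1% to 90.3%. The picked region was still WT-only with lists of equal length. Its neighbour at chr11:128470978-128473018 was called in all 6, with a fold of 13.2, 17.7 and 18.4 in the WT and 7.82, 7.54 and 9.82 in the KO. With lists of equal length this neighbour's percentile was 72.9, 78.4 and 85.5 in the WT and 57.1, 48.3 and 71.1 in the KO, without overlap. The region at chr11:128610418-128612017, −23.7 kb from the outer start, showed the same order, with 78.1, 66.6 and 65.7 in the WT and 52.0, 60.2 and 34.1 in the KO. A second WT-only region of ETS1, at chr11:128525458-128525994, was weak, with WT folds of 5.77, 4.13 and 4.40.

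SPI1 (PU.1) and SPIB, the ETS factors of early and mature B cells, had almost no regions of their own. Within SPI1 a single region was called, at chr11:47373810 in 2 WT and 0 KO lists, and the 3 regions called in all 6 lists around it all lay at the starts of other coding genes, such as PSMC3 and SLC39A13. The best distal regions near SPI1, at −15 and −21.7 kb, were called in 3 and 4 lists with folds between 3.35 and 5.90. Inside SPIB no list held a region. Its best distal regions were one 41.7 kb downstream, overlapping MYBPC2 and called in 3 WT and 2 KO lists, and one at chr19:50356824-50358941 and −61.1 kb, called in all 6 with mean folds of 6.52 ± 1.11 and 5.98 ± 1.10. Neither gene had a WT-only or KO-only region.

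BCL6, the repressor of germinal centre B cells, was open over its first part and at a distance on both sides. A region 5167 bp long inside the gene, at chr3:187737569-187742735, had a fold of 15.4, 20.4 and 16.3 in the WT and 15.0, 13.1 and 12.6 in the KO. Its percentiles with lists of equal length overlapped between the genotypes. Beyond the far end, 97.2 kb from the start, the region at chr3:187647100-187649383 had 20.9, 24.3 and 22.2 in the WT and 12.9, 13.4 and 15.2 in the KO. Its percentile with lists of equal length was 90.4, 89.3 and 91.3 in the WT and 81.4, 78.5 and 87.6 in the KO, without overlap. A region at chr3:187677490-187680204 was called in all 6 full lists, at percentiles of 65.3, 57.5 and 58.9 in the WT and 17.9, 9.27 and 4.57 in the KO, and with lists of equal length in 3 WT lists and KO replicate 1. The 2 WT-only regions, at chr3:187769619-187770594 and chr3:187777218-187777841 upstream, had mean WT folds of 4.39 and 5.02 and neither was WT-only with lists of equal length.

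BACH2, the repressor that delays plasma cell formation, had weak regions scattered through a long gene. Of 6 interior regions called in all WT lists 1 was called in all 6, at chr6:90284142-90286213 and 11.7 kb from the start, with a fold of 8.33, 11.2 and 9.85 in the WT and 7.52, 8.20 and 7.58 in the KO. The percentiles of that region with lists of equal length overlapped between the genotypes. The other interior regions called in all WT lists were called in 1 or 2 KO lists, so none was WT-only in the full lists. With lists of equal length the region at chr6:89954632-89955795 became WT-only, with WT folds of 8.76, 7.78 and 6.71. The strongest distal region, at chr6:90368808-90369637 and −72.4 kb, had a fold of 11.1, 13.4 and 14.0 in the WT and 8.43, 13.8 and 7.86 in the KO, which overlapped.

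BCL11A had the fewest regions, 5, none of them inside the gene away from a start. Upstream, at chr2:60581390-60582234, a region −27.9 kb from the start had a fold of 8.54, 12.4 and 8.17 in the WT and 5.72, 5.90 and 5.61 in the KO. Its percentile with lists of equal length was 46.6, 60.7 and 39.0 in the WT and 36.2, 30.2 and 38.1 in the KO, with every KO value below every WT value. The single WT-only region, at chr2:60642106-60642706 and −88.5 kb, had WT folds of 3.63, 4.86 and 3.77 and was not WT-only with lists of equal length.

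**Figure D3:**
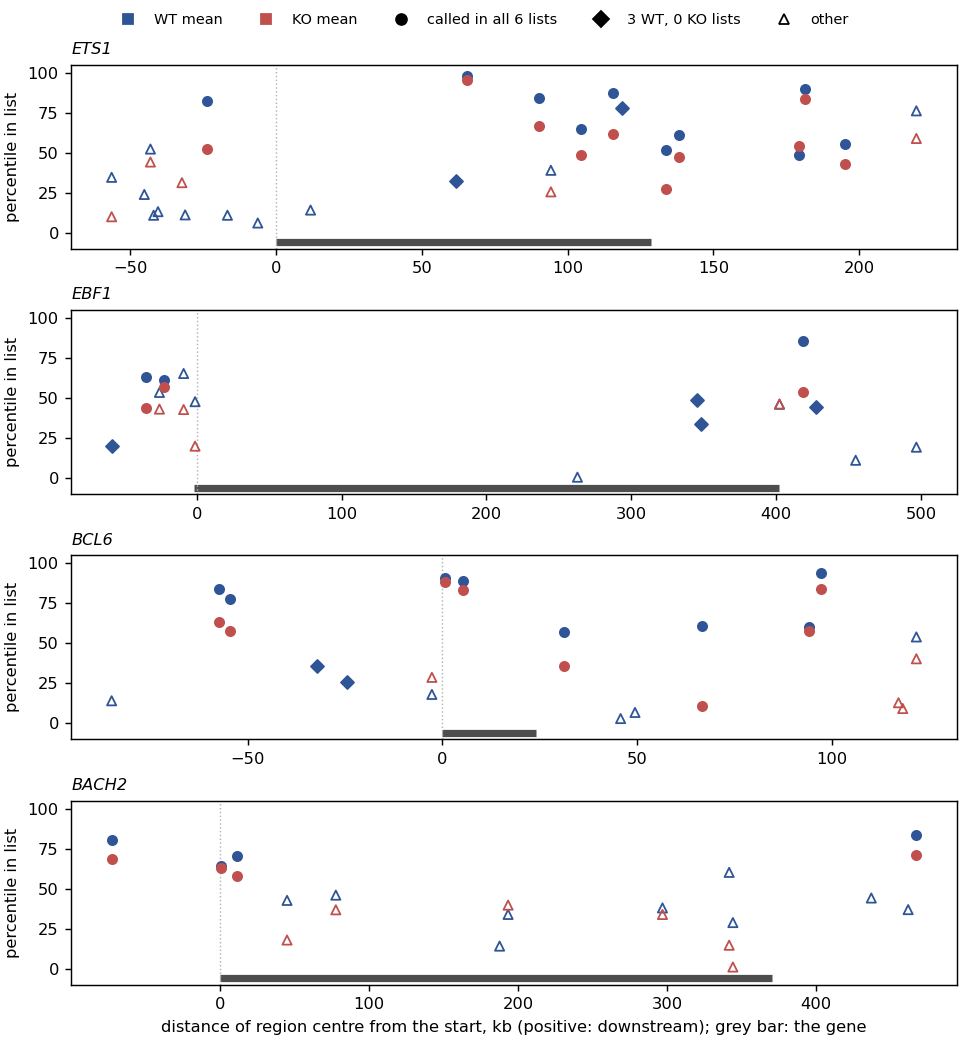
Regions around ETS1, EBF1, BCL6 and BACH2 by distance of the region's centre from the outermost start (horizontal axis, kb, positive downstream) and mean within-list percentile of the −log10 p-value (vertical axis). Blue marks are WT means and red marks KO means over the lists that call the region, circles were called in all 6 lists, diamonds in 3 WT and 0 KO lists, open triangles in other combinations, and the grey bar is the gene. The ETS1 diamond at a percentile of 77.6 stands above the other WT-only regions drawn, of which the highest reaches 48.6. The WT-only region of BCL11A is not drawn.

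Among regions called in all 6 lists of equal length, gene starts and distal regions were ordered differently. Of 51 such regions in the windows, 17 had every KO percentile above every WT percentile (33.3% against 19.1% of 20727 regions over the genome), and 7 had every KO percentile below (13.7% against 16.6%). Of the 20 at a start of a listed or another coding gene, 11 were higher in the KO and 1 lower, against 26% and 12.2% at starts over the genome. The higher ones included the starts of TCF3, BCL6, BACH2 and ID3, and the lower one was the region at the start of BCL11A. The rest of the higher ones lay at starts of neighbouring genes, namely ASAP3, E2F2, SLC39A13, MBD3, UQCR11, NR1H2 and POLD1. Starts in one window are neighbours and are not independent. Of the 31 regions away from starts 6 were higher and 6 lower, against 13.3% and 20.3%. The 6 lower ones were the regions of ETS1, EBF1, BCL6 and BCL11A named above and one at chr3:187802177-187803720, upstream of BCL6. The 6 higher ones included the regions of EBF1 at −22.6 kb and PAX5 at 7.2 kb named above. The rest were at chr1:23524730-23526507 (ID3), chr11:128407798-128408639 (ETS1), chr19:1671771-1672732 (TCF3) and chr3:187650915-187651885 (BCL6). The ETS1 one had a percentile of 26.8, 8.27 and 6.43 in the WT and 43.1, 62.3 and 47.9 in the KO. ETS1, EBF1 and BCL6 thus had distal regions of both orders.

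**Figure D4:**
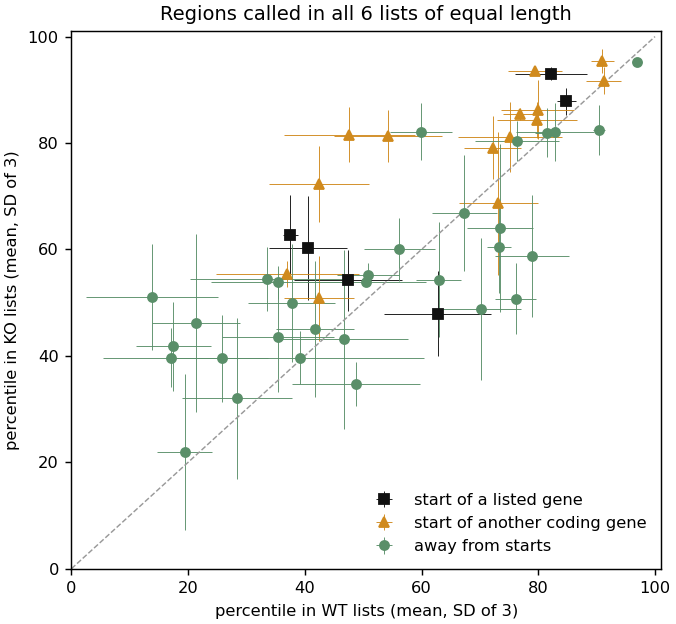
Mean within-list percentile in the WT (horizontal axis) and KO (vertical axis) of the 51 regions called in all 6 lists of equal length, with SD over 3 libraries as error bars. Squares are starts of the listed genes, triangles starts of other coding genes and circles regions away from starts, and the dashed line marks equal percentiles. Most triangles lie above the line, and circles lie on both sides.

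A wider list of 20 further B cell factors and cofactors was examined in the same way. In 12 of 20 the start was called in all 6 lists, near the 56.2% of all coding gene starts. Among them were FOXO1, IKZF1, POU2F2, POU2AF1, RUNX1, LEF1, MYB and ID2. MEF2B, IKZF3 and NFATC1 were called in 3 WT and 2 KO lists, IRF8 in 2 WT and 0 KO lists and ZEB2 in 1 WT list. MEF2C, TCF4 and SPIC had no peak at the outermost start, though MEF2C and TCF4 had a RefSeq start inside the record that was called in all 6. None of the 20 had a WT-only or KO-only start. For POU2AF1, IKZF3, RELB and CIITA a peak at either gene end was counted, which gives more room for a call than a single start.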

How the data were processed

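Chromatin accessibility was taken from the peak lists of 6 ATAC-seq libraries of ARP1, grouped by title. Per the labels' protocols, size selection came before paired-end sequencing. The submitters' processing notes name Trimmomatic, FastQC, MultiQC, Bowtie2, MACS2 2.1.2 and GRCh38 without roles or settings, and whether reads were shifted for Tn5 or duplicates removed is not given in the sources used here. The authors called peaks per library. In every deposited file the score equals 10 times the −log10 q-value, cut to a whole number. The authors' fold is a ratio over the caller's background, and the −log10 p-value and −log10 q-value are as the authors deposited them.

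The mitochondrial peak of each list was left out. Peaks were merged across lists from 1 bp of overlap (Python 3.11.15, pandas 2.3.3). A region counted as called when a list held a peak in it, and its fold and percentile came from the peak with the highest −log10 p-value. Gene positions and starts came from RefSeq tables of GRCh38.p14. The start table held 15842 coding genes, and for the rest both gene ends were used when neighbouring starts were marked. Regions named by rule are each gene's start, its WT-only and KO-only regions and the 2 distal regions with the highest mean percentile in at least 3 lists. Also named are distal regions whose percentiles did not overlap between genotypes with lists of equal length. A few others, such as chr3:187677490-187680204, were added. These further regions were named because of their values. Peak numbers were compared with exact permutation tests over 20 labellings, whose smallest two-sided p is 0.1. Shares over all merged regions or coding genes stand beside the main counts. Depth is not known from the lists. The code was tested on simulated data. One marker of the mature B cell list is not reported here. The 10 genes and the comparison lists were chosen with earlier results of these data known.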

Additional observations from a re-analysis of the deposited data

How the results depend on the processing

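Equal list length moved 3 of the 6 main results. With the 33055 strongest peaks of each list, the WT minus KO difference in window peaks was −1 in place of 28.0, WT-only regions numbered 3 in place of 9, and KO-only regions 2 in place of 0. This setting removes WT peaks by construction. With windows of 10 kb, 4 regions were WT-only and 20 were called in all 6 lists in place of 58, since fewer regions enter. Without 1 library at a time, WT-only regions numbered 10 to 14, with 14 reached without KO replicate 2, since fewer lists then have to meet the rule. The difference per 10000 peaks kept its sign under every alternative run, from −4.02 at a −log10 q-value of at least 5 to −0.30 with lists of equal length, and its exact permutation p ranged from 0.1 to 1. The count of starts open in all 6 lists was 5 under every alternative but one: without KO replicate 3 it was 6, with PAX5 added. The other alternatives set (a −log10 q-value of at least 5, a fold of at least 4, merging from 200 bp, windows of 50 kb, other genes' starts left out, start windows of 500 bp and 2 kb) kept each main count within 1.5 times its value. WT-only counts of single genes were less steady. At a −log10 q-value of at least 5 and at a fold of at least 4, BCL6 went from 2 to 1 and BCL11A from 1 to 0. BACH2 went from 0 to 1 at the q-value setting, and BCL11A from 1 to 0 with windows of 50 kb.

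With the replicate number as a block the difference in window peaks was 28.0 and that per 10000 peaks −2.55, each with an exact permutation p of 0.25, the smallest that 8 labellings allow. The numbers showed no pairing: the deviations of same-numbered libraries correlated at −0.04, 0.01 and −0.14 over 23589 regions called in all 6 lists. No total read numbers are in the lists, so a missing call means that no peak passed the threshold of that list.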
